A study of Mus musculus with 12 samples.

Results

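The subject here is a set of 35 mouse genes of glycolysis and of the response to low oxygen, followed over 4 groups of embryonic stem cells. They were chosen by symbol: 4 glucose and lactate carriers, 10 upper and 7 lower glycolysis enzymes, 2 lactate dehydrogenases, 4 genes of pyruvate dehydrogenase and its kinase, Hif1a, and 7 further hypoxia targets. Of the 53819 symbols in the count table, 25076 had counts and 13852 passed the filter on low counts. All 35 genes had counts and all 35 passed. The cells were E14 mouse embryonic stem cells, a widely used pluripotent line, kept as 2D cultures. The 4 groups, with 3 libraries each, were control (untreated), proline (72 h), budesonide (72 h) and both (proline and budesonide in combination, also 72 h). No dose is stated, all 12 libraries come from the 1 line, and no label says that replicates were separate cultures, so each p-value reflects the spread among the libraries at hand, possibly a technical one.

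Glycolysis splits glucose into pyruvate and yields ATP without oxygen. Pyruvate is then either reduced to lactate, which leaves the cell, or enters the mitochondria through pyruvate dehydrogenase. Hypoxia-inducible factor 1, whose alpha subunit is the product of Hif1a, switches on many of these genes when oxygen is low. It is controlled mainly through the stability of the protein, which these data do not measure. Mouse embryonic stem cells use both glycolysis and respiration, and their shift from the naive to the primed state is known for a greater reliance on glycolysis. L-proline is an amino acid that moves such cells towards a primed-like state. Budesonide is a synthetic glucocorticoid, a class of hormone named for its effect on glucose metabolism.

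Messenger RNA was counted near its 3′ end. Library totals ran from 5.30 to 8.48 M counts (M for mega), except for proline 1 at 15.9 M. Levels are given in CPM, the counts per M counts of the scaled library total, and changes as log2 ratios ± SE from edgeR's quasi-likelihood test, with Benjamini-Hochberg adjusted p over all 13852 genes. The words rose, fell and called are kept for an adjusted p below 0.05. Control 3 and budesonide 3 had the highest shares of tested genes at 0, at 6.57% and 8.43%, while the range elsewhere was 1.39% to 5.77%. Among 8 markers of pluripotent cells, the summed level was 2734 to 3493 CPM in control, 2622 to 3059 with proline, 2348 to 2627 under budesonide and 2694 to 2844 with both. Single markers moved within that sum. With proline Nanog went from 217 to 111 CPM (adjusted p = 9.62e-05), Zfp42 from 141 to 55.2 CPM (adjusted p = 6e-06) and Esrrb from 376 to 119 CPM (adjusted p = 3.68e-08), all lower. With both compounds Nanog was at 278 CPM, Zfp42 at 118 and Esrrb at 340. Of the 8 markers 3 rose and 2 fell for both against proline. With budesonide Utf1 (adjusted p = 0.00724) and Tdgf1 (adjusted p = 0.000123) fell. Markers of other cell types summed to less: 9 trophoblast markers summed to 62.8 to 68.5, 42.3 to 71.5, 97.6 to 136 and 130 to 150 CPM in the same order, and 9 endoderm markers to 9.72 to 14.1, 25.9 to 28.9, 5.40 to 17.7 and 16.9 to 24.8 CPM. The 10 fibroblast markers, mostly Vim, summed to 169 to 232, 233 to 245, 208 to 239 and 284 to 314 CPM. Vim rose and Thy1 fell for both against control and for both against proline. The 8 neural markers summed to 88.4 to 106, 82.6 to 96.6, 86.3 to 93.8 and 99.0 to 125 CPM. Pax6 and Map2 rose for both against control. In other comparisons neural markers went down: Tubb3 fell with proline, from 44.5 to 23.6 CPM, and Neurod1 fell with budesonide, from 36.7 to 16.9 CPM. With both, Tubb3 was at 53.5 CPM and Neurod1 at 22.0 CPM. The 8 mesoderm markers summed to at most 12.3 CPM in any library. Within these lists the fibroblast markers Lum and Postn, the endoderm marker Cer1 and the mesoderm marker Foxf1 were at 0 in all groups. Mitochondrially encoded genes took 5.51% to 5.79% of the counts in the 3 proline libraries and 7.31% to 8.03% in the 9 others. The part of these differences in the results was not tested, and in bulk RNA fewer cells of a type and less RNA per cell cannot be told apart.

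With proline, more of the glycolysis and hypoxia genes rose than fell. Those that rose were the glucose carrier Slc2a1, the lactate exporter Slc16a3, Pfkl, Tpi1, Pkm, Ldha, the kinase Pdk1 and the hypoxia target Bhlhe40. The glucose carrier Slc2a3 and the phosphofructokinase Pfkp fell. The counts were thus 8 higher, 2 lower and 25 not called of 35. Among all tested genes 3.17% rose and 4.71% fell. The 35 genes had a median log2 change of 0.31, against −0.0090 over all tested genes. Budesonide alone gave a mixed picture. Slc2a3, Gpi1, Ndrg1 and Bhlhe40 rose and Gapdh and Ldha fell, with 29 not called, where 2.51% of all genes rose and 4% fell. The median was 0.17 against 0.013. The 35 genes were chosen with earlier results of these data known, and the part of that choice in these counts and medians was not tested.

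When budesonide was given with proline, the comparison with proline alone again split the genes, with 4 higher, 4 lower and 27 not called. Over all genes 5.83% rose and 4.27% fell (808 and 591 genes, but 541 and 617 with offsets for transcript length and GC content), and the medians were 0.030 for the 35 genes and 0.017 for all. Slc2a3, Ldhb, Ndrg1 and Bhlhe40 were the genes that rose, and Slc16a3, Gapdh, Ldha and Ddit4 those that fell. Against untreated cells, both compounds together raised 9 genes and lowered 1, with 25 not called and a median of 0.34 against 0.0089, where 3.34% of all genes rose and 3.83% fell. Against budesonide alone, 2 rose, 0 fell and 33 were not called, at 0.874% and 0.592% of all genes and medians of 0.15 and 0.0062. In that comparison 14 of the 35 had an unadjusted p below 0.05, against 1810 of all 13852 genes. DESeq2 called 3 of the 35 higher and 0 lower, and 419 of all genes in either direction. These 5 comparisons share libraries and are not independent of each other.

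Counts of this size moved when 1 library was left out. Budesonide against control fell from 6 to 3 called genes without control 2, and to 3 with a fit of only the 6 libraries compared. Both against proline fell from 8 to 5 without both 2 or both 3, both against control from 10 to 6 without both 2, and both against budesonide from 2 to 1 without budesonide 1 or any 1 of the libraries with both. Across all 5 comparisons 17 of the 35 genes were called at least once and 18 never. Counting the group with the highest mean level of each gene, 12 of 35 peaked with proline, 11 with both, 7 with budesonide and 5 in control. Neither the genes called at least once nor the peaks were counted over all tested genes.

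**Figure D1:**
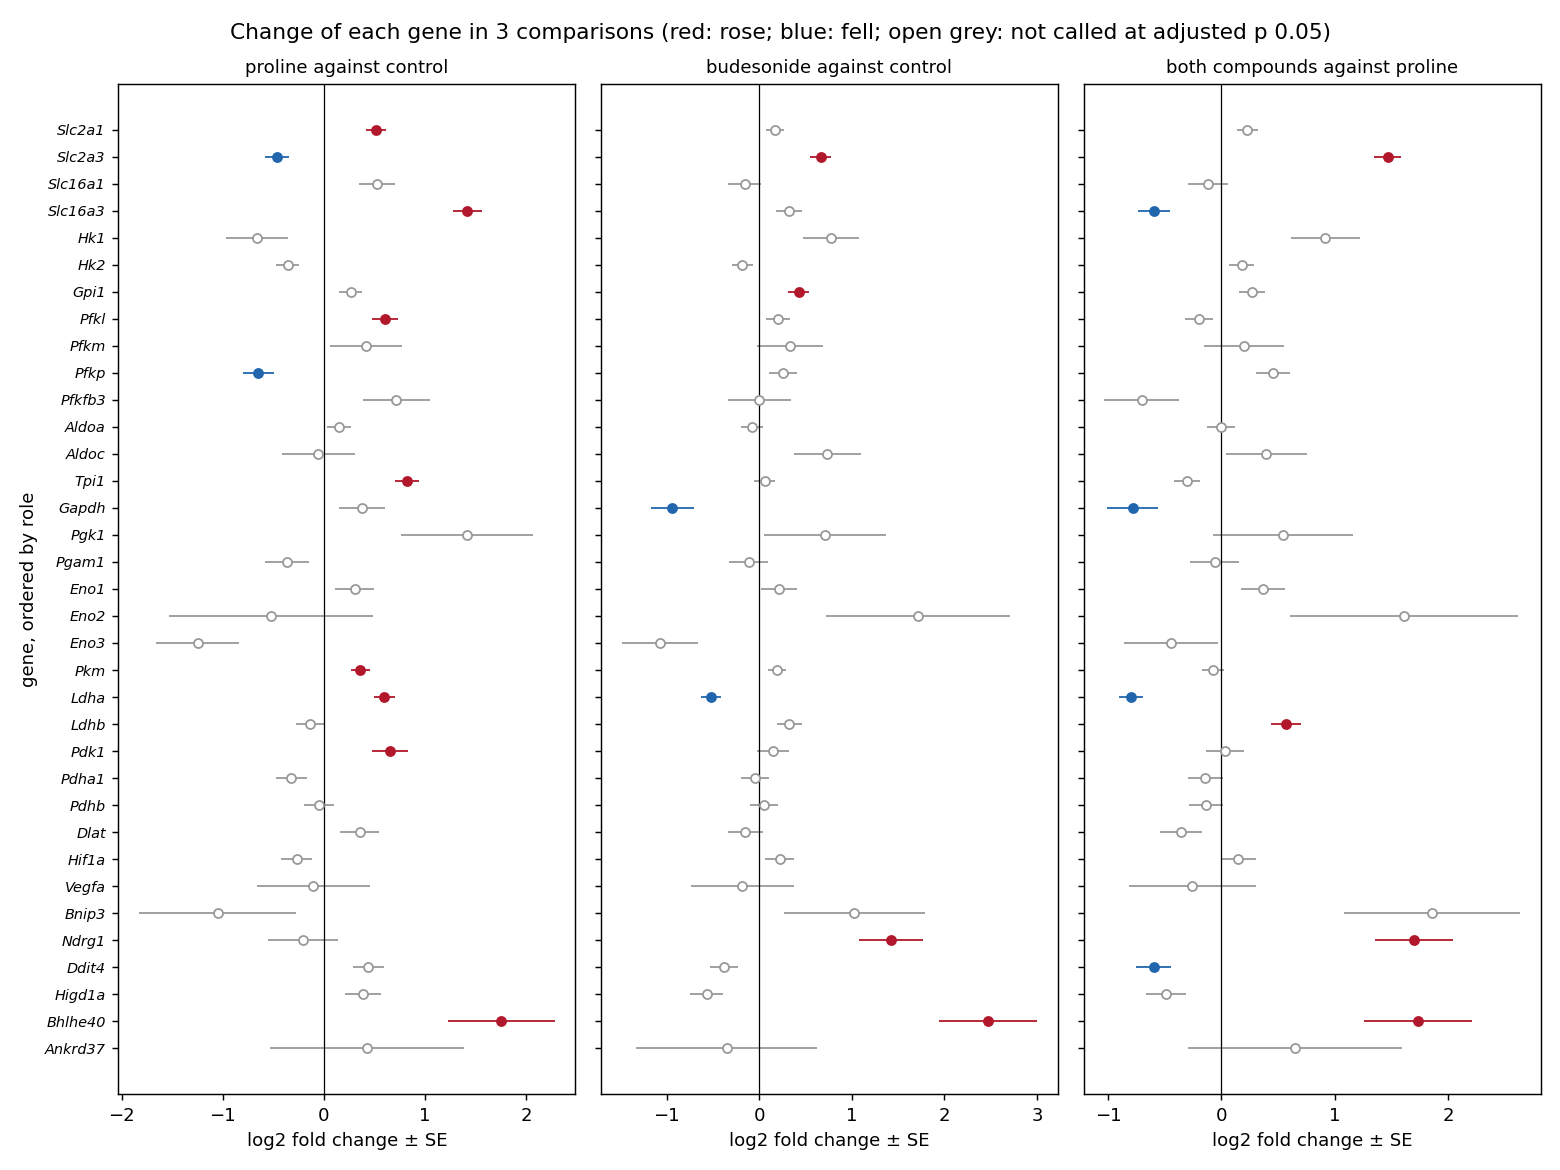
Log2 change (x axis) of each of the 35 genes (y axis, ordered by role) with proline against control, budesonide against control, and both against proline; points are edgeR estimates, bars their SE, red points rose, blue points fell and open points were not called. Most called genes lie to the right of 0 with proline, and the budesonide comparisons hold called genes on either side.

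Of the 4 glucose and lactate carriers, 2 rose and 1 fell with proline. Slc2a1 encodes GLUT1, the carrier for basal glucose uptake. Its level was 541, 533 and 487 CPM in control and 747, 750 and 734 with proline. It was 599, 555 and 604 with budesonide, and 820, 851 and 944 with both. Every library that received proline lay above every library that did not. The change was 0.52 ± 0.10 with proline (adjusted p = 0.00114), 0.57 ± 0.10 for both against budesonide (adjusted p = 0.00243) and 0.74 ± 0.10 for both against control (adjusted p = 3.72e-05). Budesonide alone gave 0.17 ± 0.10 (adjusted p = 0.342). With offsets for transcript length and GC content, the change for both against budesonide was no longer called (adjusted p = 0.0664).

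Slc2a3, which encodes the high-affinity glucose carrier GLUT3, went the other way with proline. It stood at 394, 385 and 470 CPM in control and at 300, 298 and 308 with proline, a change of −0.46 ± 0.12 (adjusted p = 0.0128). With budesonide it stood at 625, 729 and 624 CPM, a change from control of 0.66 ± 0.12 (adjusted p = 0.000904). With both compounds the values were 831, 721 and 947 CPM, 2.76 times the level with proline alone (log2 1.46 ± 0.12, adjusted p = 1.68e-08) and 2 times the control level (adjusted p = 7.92e-06). Libraries of control, proline and budesonide did not overlap, while both overlapped budesonide, where the change was 0.34 ± 0.11 (adjusted p = 0.164). The fall with proline was not called without control 3 (adjusted p = 0.0647) or without proline 1 (adjusted p = 0.0521).

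The lactate carriers differed from each other as well. Slc16a3 encodes MCT4, which exports lactate from strongly glycolytic cells. Its level was 98.2, 95.6 and 94.2 CPM in control and 269, 209 and 293 with proline, a 2.68-fold rise (log2 1.42 ± 0.15, adjusted p = 5.86e-07). With budesonide it was 104, 134 and 122 CPM (0.32 ± 0.14, adjusted p = 0.208). With both it was 173, 188 and 149 CPM, below every proline library and above every control library. The change was −0.60 ± 0.14 against proline (adjusted p = 0.00737) and 0.83 ± 0.14 against control (adjusted p = 0.00077). The fall against proline was not called without proline 3 (adjusted p = 0.0624) or without both 3 (adjusted p = 0.0509). Slc16a1, which encodes the bidirectional carrier MCT1, was at 91.6, 88.5 and 58.6 CPM in control and at 118, 112 and 114 with proline. These groups did not overlap, but the change of 0.53 ± 0.18 missed the threshold (adjusted p = 0.0731). Calls were made with no low-count filter (0.038), DESeq2 (0.0479) and length and GC offsets (0.0254, all adjusted p).

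**Figure D2:**
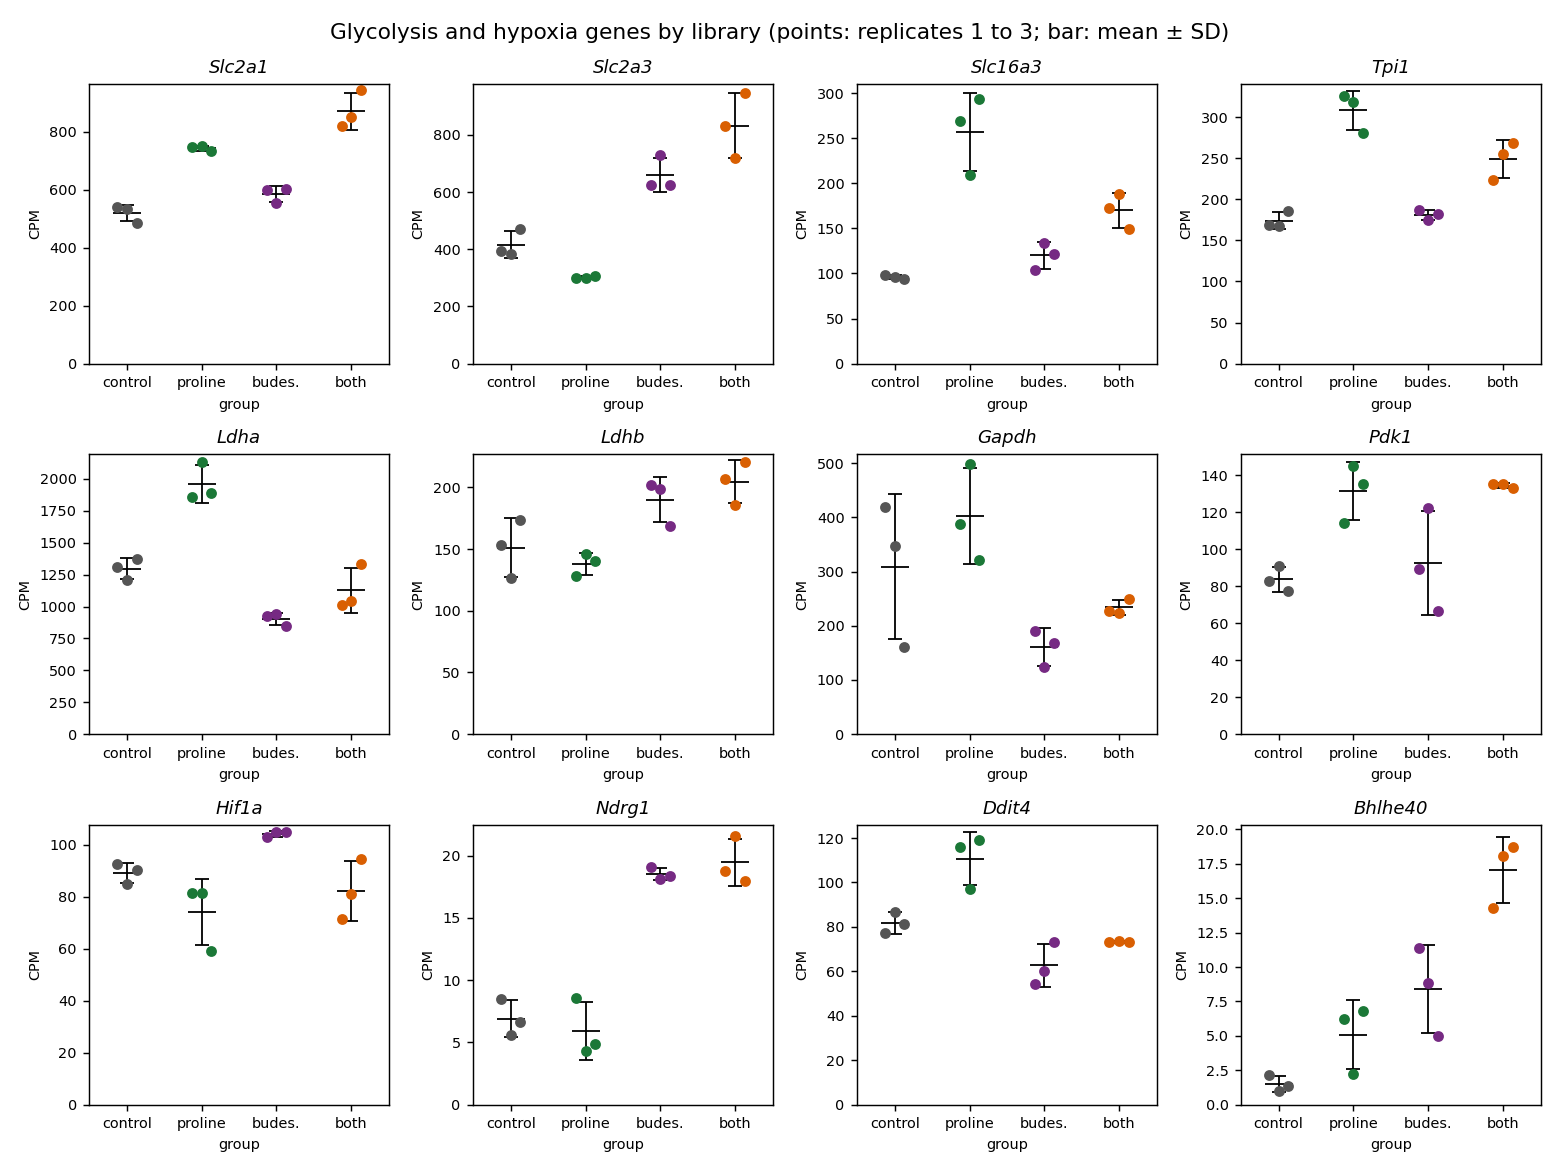
Level in CPM (y axis, linear, each panel with its own scale from 0) of 12 of the genes in each library (points) by group (x axis), with bars at the group mean ± SD. Slc2a1 is high in both groups that received proline, Slc16a3 and Ldha are highest with proline alone, and Slc2a3 and Ndrg1 are high in both groups that received budesonide.

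Of the 10 upper glycolysis enzymes, which carry glucose to triose phosphates, 2 rose and 1 fell with proline, and 1 rose with budesonide. For both against proline 0 were called, although 5 had an unadjusted p below 0.05 and DESeq2 called 2 higher and 1 lower. Over all genes 3217 of 13852 had an unadjusted p below 0.05 in that comparison. Tpi1, triose phosphate isomerase, was at 169, 167 and 186 CPM in control and 326, 318 and 281 with proline, a 1.77-fold rise (log2 0.82 ± 0.12, adjusted p = 4.82e-05). With budesonide it was at 187, 175 and 182 CPM (0.06 ± 0.12, adjusted p = 0.858). With both it was at 224, 255 and 269 CPM, above every library without proline and below every library with proline alone. That was 0.52 ± 0.12 over control (adjusted p = 0.00692) and 0.46 ± 0.12 over budesonide (adjusted p = 0.0473). The latter call ended without any 1 of budesonide 1, 2 or 3 or both 1, 2 or 3, with adjusted p of 0.0698 to 0.204. It also ended with RLE scaling factors (0.0542), no low-count filter (0.0517), only the libraries compared (0.0862), length and GC offsets (0.339), and without control 3 and budesonide 3 together (0.0621, all adjusted p).

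Phosphofructokinase commits sugar to glycolysis, and its liver and platelet forms moved apart. Pfkl, the liver form, was at 143, 171 and 189 CPM in control and 269, 245 and 250 with proline (0.60 ± 0.13, adjusted p = 0.00305). Pfkp, the platelet form, was at 192, 168 and 229 CPM in control and 130, 126 and 120 with proline (−0.65 ± 0.15, adjusted p = 0.00787). The groups were separate for each gene, in opposite directions. With budesonide Pfkl was at 186, 207 and 186 CPM (0.20, adjusted p = 0.402) and Pfkp at 213, 289 and 204 CPM (0.26, adjusted p = 0.357). With both, Pfkl was at 211, 247 and 208 CPM (0.41 against control, adjusted p = 0.0528) and Pfkp at 158, 155 and 203 CPM (0.46 against proline, adjusted p = 0.0577). The muscle form Pfkm was low, at 10.6 to 34.8 CPM over the 12 libraries, and was not called in any comparison. Pfkfb3, which makes the activator of phosphofructokinase, was at 14.6, 7.32 and 13.7 CPM in control and 18.6, 20.1 and 20.1 with proline (0.72 ± 0.33, adjusted p = 0.227).

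Gpi1, glucose-6-phosphate isomerase, was the upper enzyme that rose with budesonide. It was at 211, 235 and 250 CPM in control, 292, 259 and 288 with proline, 292, 338 and 306 under budesonide and 314, 334 and 365 with both. All 3 treated groups lay above control. The change was 0.43 ± 0.11 with budesonide (adjusted p = 0.0243), 0.54 ± 0.11 with both (adjusted p = 0.00424) and 0.27 ± 0.11 with proline (adjusted p = 0.18). Its call for budesonide was lost without control 1 (adjusted p = 0.117), without control 2 (0.0644) and without budesonide 2 (0.101). Fitting only the libraries compared also ended it.

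Hexokinases trap glucose in the cell by phosphorylating it. Hk2 was at 555, 597 and 636 CPM in control and 505, 442 and 450 with proline, and its change of −0.36 ± 0.11 missed the threshold (adjusted p = 0.0521), while DESeq2 called it (adjusted p = 0.0194). Hk1 varied widely in control, at 20.3, 17 and 45 CPM, and was at 60.7, 46.7 and 33.7 CPM with budesonide. Its change of 0.77 ± 0.30 was not called (adjusted p = 0.143). Without control 3 it was 1.33 (adjusted p = 0.00656), and without control 3 and budesonide 3 it was 1.53 (adjusted p = 0.0015). The aldolase Aldoa, at 968, 1080 and 1510 CPM in control and 1370, 1350 and 1230 with proline, was called only without control 3 (0.36, adjusted p = 0.0263) and without control 3 and budesonide 3 (adjusted p = 0.0197). Aldoc, a minor aldolase in these cells, ran from 8.48 to 27.3 CPM and was not called in any comparison.

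Of the 7 lower enzymes, which turn triose phosphates into pyruvate, 1 rose with proline and 1 fell with budesonide. Pkm, pyruvate kinase, was at 503, 490 and 519 CPM in control and 667, 666 and 612 with proline. That rise of 0.36 ± 0.10 (adjusted p = 0.0208) kept the groups apart, but it was not called without control 1 (adjusted p = 0.0643), control 2 (0.0886), proline 1 (0.0916) or proline 2 (0.0677), nor with length and GC offsets (0.156). It stood at 551, 590 and 593 CPM under budesonide and 604, 664 and 579 with both. Pgam1, phosphoglycerate mutase, ran from 31.7 to 64.2 CPM and was not called.

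Enolase makes phosphoenolpyruvate, and by their own counts 2 of its 3 genes changed with both compounds, in opposite directions. The Eno1 change is uncertain because of a near-identical copy, described below. Eno3, the muscle form, was at 17, 22.9 and 26.1 CPM in control and 4.31, 7.16 and 8.94 with both (−1.69 ± 0.42, adjusted p = 0.0141). With proline it was at 4.78, 6.96 and 16.4 CPM (−1.24 ± 0.41, adjusted p = 0.0675) and with budesonide at 10.9, 10.2 and 10.1 CPM (−1.07 ± 0.41, adjusted p = 0.126). All 9 treated libraries lay below all 3 controls. The Eno3 call for both ended without control 3 (adjusted p = 0.0551), both 1 (0.093) or both 2 (0.0545). The proline change was called without proline 3 (−1.92, adjusted p = 0.00895). Eno1, the ubiquitous form, was at 117, 101 and 61.7 CPM in control and 155, 166 and 126 with both (0.67 ± 0.19, adjusted p = 0.0352). Its call ended without control 2 (0.0572), control 3 (0.177), both 1 (0.116) or both 2 (0.159), and with offsets (0.0715, all adjusted p). That call also ended with only the libraries compared, and without control 3 and budesonide 3 together. Eno2, the neuronal form, ran from 0.065 to 11.9 CPM and was not called.

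Some of these counts are uncertain because the gene has near-identical copies. Of the 50-base stretches in the last 500 bases of the transcript, 90.5% of those of Gapdh, 75.2% of those of Eno1 and 24.4% of those of Ldhb also stand in a transcript of another gene, and how reads matching several genes were counted is not given in the sources used here. For Eno1 the copy is Eno1b, which held 7098 counts. Eno1 and Eno1b summed to 185, 156 and 145 CPM in control and 209, 254 and 184 with both, so these groups overlapped. With proline the sum was 203, 230 and 221 CPM. The sum was not tested, and a rise of Eno1 and a shift of reads between the 2 genes cannot be told apart. Eno1b was at 67.9, 54.5 and 83.4 CPM in control and 96.9, 99.3 and 111 with proline (0.57 ± 0.19, adjusted p = 0.0664), and it fell for both against proline (−0.61 ± 0.19, adjusted p = 0.0419). A Gapdh copy, Gm7336, held 404 counts. The share was 8.87% for Pdhb, 7.32% for Pgk1, 4.21% for Gpi1 and 3.33% for Aldoa, and 0% for the other 28 genes.

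Gapdh, glyceraldehyde-3-phosphate dehydrogenase and a common reference gene, was uneven within control at 419, 348 and 160 CPM. It was at 387, 498 and 322 CPM with proline, 191, 123 and 169 under budesonide and 228, 224 and 250 with both. Budesonide lowered it by the test (−0.94 ± 0.23, adjusted p = 0.0136), although control 3 lay among the budesonide libraries, and both lay below proline (−0.78 ± 0.23, adjusted p = 0.028) with separate groups. DESeq2 called neither (adjusted p = 0.0575 and 0.108). The first call was lost without control 1 (adjusted p = 0.103), without control 2 (0.0549), without budesonide 2 (0.0626) and with only the libraries compared. The second was lost without any 1 of proline 1 or 2 or both 1, 2 or 3 (adjusted p = 0.0577 to 0.148). Without control 3, both against control was −0.72 (adjusted p = 0.00954), against −0.40 (adjusted p = 0.351) with all libraries. Pgk1, phosphoglycerate kinase, was listed at only 0.463 to 24.4 CPM and was not called. With no low-count filter it was called with proline (adjusted p = 0.0219) and with both against control (adjusted p = 0.000342).

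Lactate dehydrogenase interconverts pyruvate and lactate. Ldha encodes the subunit that prevails in glycolytic tissue. It was at 1310, 1210 and 1370 CPM in control, 1860, 2130 and 1890 with proline, 923, 940 and 848 under budesonide and 1010, 1040 and 1330 with both. Proline and budesonide thus lay on opposite sides of control with no overlap, and both overlapped control. The change was 0.60 ± 0.11 with proline (adjusted p = 0.000602), −0.52 ± 0.11 with budesonide (adjusted p = 0.00369) and −0.80 ± 0.11 for both against proline (adjusted p = 2.24e-05). Both against control gave −0.20 ± 0.11 (adjusted p = 0.308). Across genes, which are not independent replicates, the deviation of a library from the mean of all correlated with transcript length, at −0.084 to −0.067 in control libraries and 0.048 to 0.056 in those with budesonide alone. The fall of Ldha with budesonide was −0.36 and not called with length and GC offsets (adjusted p = 0.101). Ldhb, the subunit of oxidative tissue, was at 153, 127 and 174 CPM in control, 128, 146 and 140 with proline, 202, 199 and 169 under budesonide and 207, 186 and 221 with both. It rose for both against proline (0.57 ± 0.13, adjusted p = 0.00713), the comparison in which Ldha fell. With budesonide Ldhb was not called (0.33 ± 0.13, adjusted p = 0.166), but was with offsets (0.52, adjusted p = 0.0374). Nor was it called for both against control (0.43 ± 0.13, adjusted p = 0.0523). There DESeq2 (0.0253), offsets (0.042) and a fit without control 3 (0.0247, all adjusted p) called it.

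Pyruvate dehydrogenase turns pyruvate into acetyl-CoA, and its kinase Pdk1 switches it off. Pdk1 was at 82.6, 90.8 and 77.3 CPM in control, 114, 145 and 135 with proline and 135, 135 and 133 with both. Both groups that received proline lay above control, at 0.66 ± 0.17 (adjusted p = 0.0191) and 0.69 ± 0.17 (adjusted p = 0.0158). With budesonide it was spread, at 89.3, 122 and 66.4 CPM, and not called (0.15, adjusted p = 0.72). The proline call ended without control 1 (adjusted p = 0.0617), control 3 (0.0639), proline 2 (0.083) or proline 3 (0.066). The call for both ended without control 3 (adjusted p = 0.0581), both 1 (0.0561) or both 2 (0.0613). The enzyme's own subunits Pdha1, Pdhb and Dlat were called in 0 of the 5 comparisons by edgeR, with levels of 70.2 to 125, 72.3 to 98.5 and 52.5 to 102 CPM. DESeq2 called Pdha1 lower with both against control (adjusted p = 0.0325).

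Hif1a itself was not called. It was at 92.5, 85 and 90.5 CPM in control, 81.4, 81.6 and 59.3 with proline, 103, 105 and 105 under budesonide and 71.4, 80.9 and 94.6 with both. The change was −0.27 ± 0.16 with proline (adjusted p = 0.382) and 0.22 ± 0.16 with budesonide (adjusted p = 0.483). The budesonide libraries lay above control, and the proline libraries lay below it, but neither change was called.

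Of the 7 hypoxia targets outside glycolysis, 1 rose with proline and 2 rose with budesonide. Bhlhe40, a transcriptional repressor that also acts in the circadian clock, was near the detection limit in control. It was at 2.13, 0.964 and 1.39 CPM in control, 6.21, 2.22 and 6.81 with proline, 11.4, 8.83 and 5 under budesonide and 14.3, 18.1 and 18.7 with both. Every treated library was above every control library, and the libraries with both were above all others. The change was 2.47 ± 0.53 with budesonide (adjusted p = 0.00543), 1.76 ± 0.53 with proline (adjusted p = 0.0416), 1.73 ± 0.48 for both against proline (adjusted p = 0.0207) and 3.49 ± 0.54 for both against control (adjusted p = 0.000238). The proline call ended without control 1 (0.0541), control 2 (0.163), control 3 (0.106), proline 1 (0.145) or proline 3 (0.152), with only the 6 libraries compared (0.171), and without control 3 and budesonide 3 together (0.0576, all adjusted p). For both against proline it ended without proline 2 (adjusted p = 0.1), both 2 (0.0815) or both 3 (0.0723), and the budesonide call ended with only the 6 libraries compared (adjusted p = 0.0571).

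Ndrg1, a stress-response gene, was high in the groups that received budesonide. It was at 8.51, 5.59 and 6.63 CPM in control and 8.57, 4.29 and 4.86 with proline, then at 19.1, 18.1 and 18.4 under budesonide and 18.8, 21.6 and 18 with both. The groups with budesonide stood above the groups without it and overlapped each other. The change was 1.42 ± 0.35 with budesonide (adjusted p = 0.0136), 1.69 ± 0.34 for both against proline (adjusted p = 0.00211) and 1.49 ± 0.35 for both against control (adjusted p = 0.00878). With proline alone it was −0.21 ± 0.35 (adjusted p = 0.835). The budesonide call ended without control 2 (adjusted p = 0.0721), and also without control 3 and budesonide 3 together. That for both against control ended without control 2 (adjusted p = 0.0529) or both 2 (0.0504).

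Ddit4, an inhibitor of mTOR signalling that glucocorticoids are known to induce in other cells, did not rise with budesonide here. It was at 77.1, 86.9 and 81.1 CPM in control, 116, 97.2 and 119 with proline, 54.4, 60.3 and 73.4 under budesonide and 73, 73.8 and 73 with both. Proline libraries lay above control and budesonide libraries below it, at 0.44 ± 0.15 (adjusted p = 0.084) and −0.38 ± 0.15 (adjusted p = 0.153). Ddit4 fell for both against proline (−0.60 ± 0.15, adjusted p = 0.0127), a call that ended without proline 1 (adjusted p = 0.0634), proline 3 (0.0666), both 1 (0.0572) or both 2 (0.0506). Higd1a, a mitochondrial protein induced by hypoxia, had the same order of groups, at 62.5, 65.1 and 70.5, then 102, 83.2 and 73.9, then 46.2, 35 and 52.2, then 62, 56.7 and 66.4 CPM. It was not called with budesonide (−0.57 ± 0.18, adjusted p = 0.0593), except by DESeq2 (adjusted p = 0.037) and without budesonide 3 (adjusted p = 0.0417).

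The other targets were low. Vegfa, the vascular growth factor, ran from 3.24 to 9.98 CPM and the mitophagy receptor Bnip3 from 0.296 to 7.2 CPM, and neither was called. Ankrd37 was uneven within groups, at 0, 0.465 and 10.4 CPM with budesonide against 6.87, 2.31 and 4.63 in control. Its change of −0.35 (adjusted p = 0.906) became −4.39 (adjusted p = 0.0233) without budesonide 3, so its value rests on that library. Likewise both against budesonide went from 1.43 (adjusted p = 0.595) to 5.46 (adjusted p = 0.0171) without it.

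The promoters of these genes were searched for the core of the hypoxia response element, which is ACGTG or GCGTG on either strand. RefSeq promoters (build GRCm38.p6, 250 bases before to 50 after a start) were at hand for 32 of the 35 genes, with 46 starts among them, and not for Slc2a3, Ndrg1 and Bhlhe40. A core stood in 36 of the 46 promoters and in at least 1 promoter of 28 of the 32 genes, against 43.8% of 32851 promoters and 46.7% of 27025 genes. It stood in 6 of the 7 matched genes that rose with proline, which does not set them apart from the 28 of 32 overall. The genes were listed partly because they are known hypoxia targets, and the part of that choice in the count was not tested. The promoters of these genes were also richer in G and C, with a median of 62% against 52.7% over all promoters, and the part of base composition in the count was not tested. The E-box CACGTG, bound by Myc and related factors and overlapping the core, stood in 6 of 46 promoters, against 7.15% of all. The glucocorticoid response element, searched as AGAACA, then any 3 bases, then TGTTCT, stood in 0 of 46 and in 3 of 32851. Such matches are descriptions of sequence within these windows. The promoters of 4 genes that rose with proline follow, with cores and their overlaps in capitals. Slc2a1 (chr4:119108495-119108794, plus strand) and Slc16a3 (chr11:120948817-120949116, plus strand) hold 2 each, the first start of Ldha (chr7:46845554-46845853, plus strand) holds cores within 2 E-boxes and beside them, and Tpi1 (chr6:124814109-124814408, minus strand) holds none.
Slc2a1: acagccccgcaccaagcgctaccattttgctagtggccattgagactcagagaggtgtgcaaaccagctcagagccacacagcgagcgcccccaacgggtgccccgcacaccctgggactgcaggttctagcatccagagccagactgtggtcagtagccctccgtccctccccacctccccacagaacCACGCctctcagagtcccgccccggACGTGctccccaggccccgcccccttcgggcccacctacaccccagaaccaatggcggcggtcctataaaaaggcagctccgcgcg
Slc16a3: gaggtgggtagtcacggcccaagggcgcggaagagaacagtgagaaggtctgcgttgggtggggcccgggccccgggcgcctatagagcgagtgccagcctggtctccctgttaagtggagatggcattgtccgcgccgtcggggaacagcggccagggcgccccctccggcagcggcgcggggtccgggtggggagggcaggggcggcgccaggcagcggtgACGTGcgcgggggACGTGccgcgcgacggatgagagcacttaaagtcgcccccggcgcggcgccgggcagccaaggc
Ldha: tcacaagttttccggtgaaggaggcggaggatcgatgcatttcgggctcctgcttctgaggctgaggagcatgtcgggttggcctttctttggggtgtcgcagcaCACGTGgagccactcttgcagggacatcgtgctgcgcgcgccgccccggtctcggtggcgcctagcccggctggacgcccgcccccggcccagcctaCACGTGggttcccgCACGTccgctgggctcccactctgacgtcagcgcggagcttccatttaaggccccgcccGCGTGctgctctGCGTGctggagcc
Tpi1: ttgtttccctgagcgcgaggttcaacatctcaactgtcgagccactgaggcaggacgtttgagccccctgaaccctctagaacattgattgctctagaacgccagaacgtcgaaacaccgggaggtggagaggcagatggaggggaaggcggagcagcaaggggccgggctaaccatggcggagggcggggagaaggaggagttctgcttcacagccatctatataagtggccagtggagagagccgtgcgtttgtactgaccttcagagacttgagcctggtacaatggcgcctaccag

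Where several genes encode forms of 1 protein, the share of each in the family's counts can be followed within a library, and it does not depend on how libraries are scaled. These shares were chosen after their values were seen. With 3 against 3 libraries the two-sided exact permutation test cannot go below p = 0.1, and over 35 comparisons of 7 shares the lowest adjusted value was 0.167, so that no share passes a threshold of 0.05. Slc2a3 made up 44.4% ± 4.06 of the counts of Slc2a1 and Slc2a3 in control libraries and 28.9% ± 0.58 with proline (SD, n = 3). With budesonide the share was 52.9% ± 3.38, and with both compounds it was 48.8% ± 2.51. Proline libraries lay at 28.4% to 29.5%, below all others. Pfkp made up 51.6% ± 4.04 of the phosphofructokinase counts in control and 31.2% ± 0.80 with proline (SD, n = 3; exact permutation p = 0.1). It stood at 52.0% ± 4.27 under budesonide and 41.0% ± 5.82 with both. Ldhb made up 10.4% ± 0.90 of lactate dehydrogenase counts in control, 6.58% ± 0.26 with proline, 17.3% ± 0.71 under budesonide and 15.4% ± 1.42 with both (SD, n = 3). No proline library reached the lowest control library for this share, and every library with budesonide lay above every library without it. The Slc16a3 share of Slc16a1 and Slc16a3 was 55.1% ± 5.67, 68.9% ± 3.59, 62.8% ± 0.56 and 61.8% ± 3.49 in the same order. Hk1 stayed a minor form, at 4.30% ± 2.04, 3.62% ± 0.43, 8.19% ± 1.99 and 5.83% ± 0.58 of Hk1 and Hk2.

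**Figure D3:**
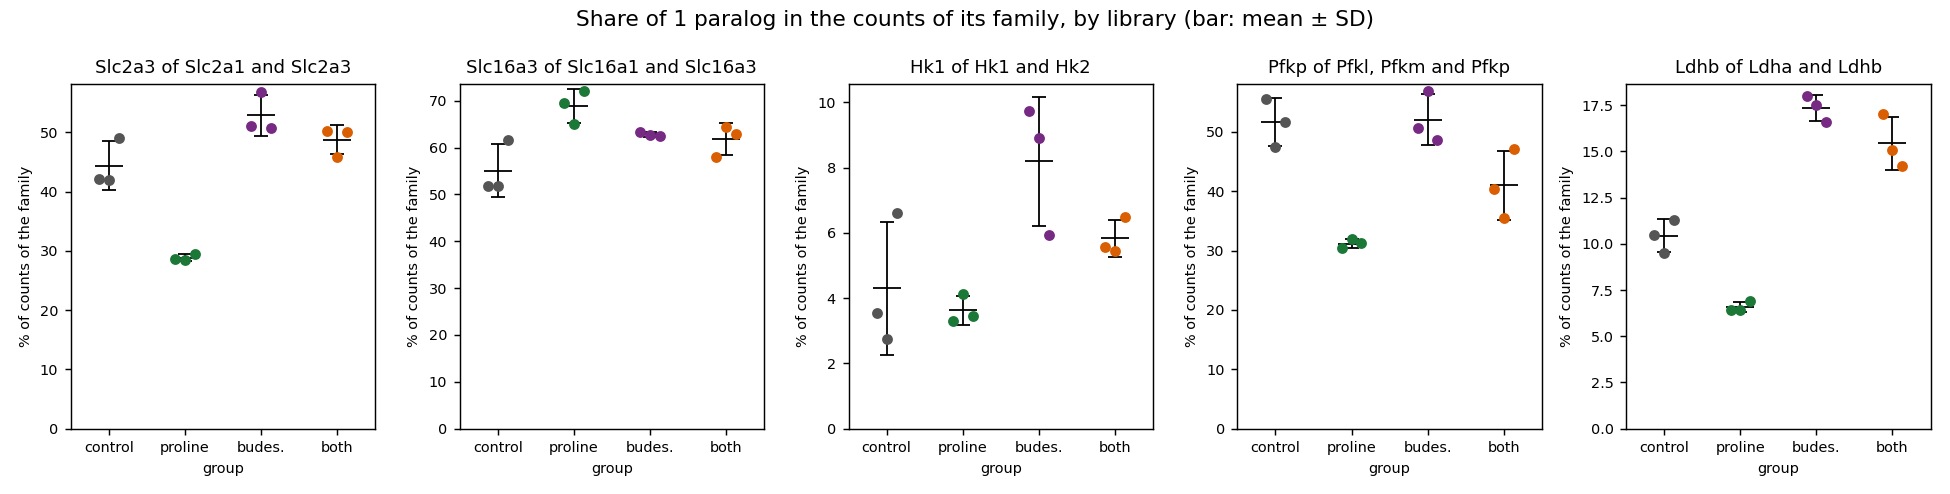
Share in percent (y axis, from 0) of 1 gene in the summed counts of its family, for each library (points) by group (x axis), with bars at the mean ± SD of 3 libraries. The shares of Slc2a3, Pfkp and Ldhb are lowest with proline alone, and that of Ldhb is highest in the groups that received budesonide.

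The design also measures each compound without and with the other. Proline against control and both against budesonide, the proline effects without and with budesonide, share no library. Of the 8 genes that rose with proline, 8 also had a positive change for both against budesonide and 2 of these were called, Slc2a1 and Tpi1, the latter with a call kept in 1 of 13 other settings. Of the 2 that fell, Pfkp was again negative (−0.45, adjusted p = 0.154) and Slc2a3 was positive. Over all 35 genes 31 had the same sign in both settings. For the budesonide effect, measured without and with proline in separate libraries, 4 of the 4 genes that rose were again positive and 3 were called (Slc2a3, Ndrg1 and Bhlhe40), and both genes that fell, Gapdh and Ldha, fell again. Of the 35 genes 27 had the same sign. These counts of equal sign were not taken over all tested genes, so they show nothing particular to the 35.

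The difference between the proline effects is the interaction, which takes all 12 libraries. It was above 0 for 1 gene and below 0 for 1, with 33 not called, where 0.411% and 0.0578% of all genes were called (57 and 8 genes, but 23 and 9 with length and GC offsets). The medians were −0.074 for the 35 genes and 0.034 for all. For Slc2a3 the proline effect was −0.46 without and 0.34 with budesonide, a difference of 0.80 ± 0.16 (adjusted p = 0.018). For Slc16a3 it was 1.42 without and 0.50 with budesonide, a difference of −0.92 ± 0.20 (adjusted p = 0.0392). The Slc2a3 difference was not called without proline 1 (adjusted p = 0.0528), budesonide 1 (0.0598), both 1 (0.0548) or both 3 (0.0714), nor with offsets (0.096). The Slc16a3 difference was not called without control 1 (0.0726), control 2 (0.0947), proline 1 (0.112), proline 3 (0.156), budesonide 2 (0.116), budesonide 3 (0.0664), both 1 (0.1) or both 3 (0.124, all adjusted p). Without control 3 and budesonide 3 together neither was called (adjusted p = 0.0623 and 0.0594). For Ldha the difference was −0.28 ± 0.15 (adjusted p = 0.63), so that the proline effects with and without budesonide were not shown to differ.

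**Figure D4:**
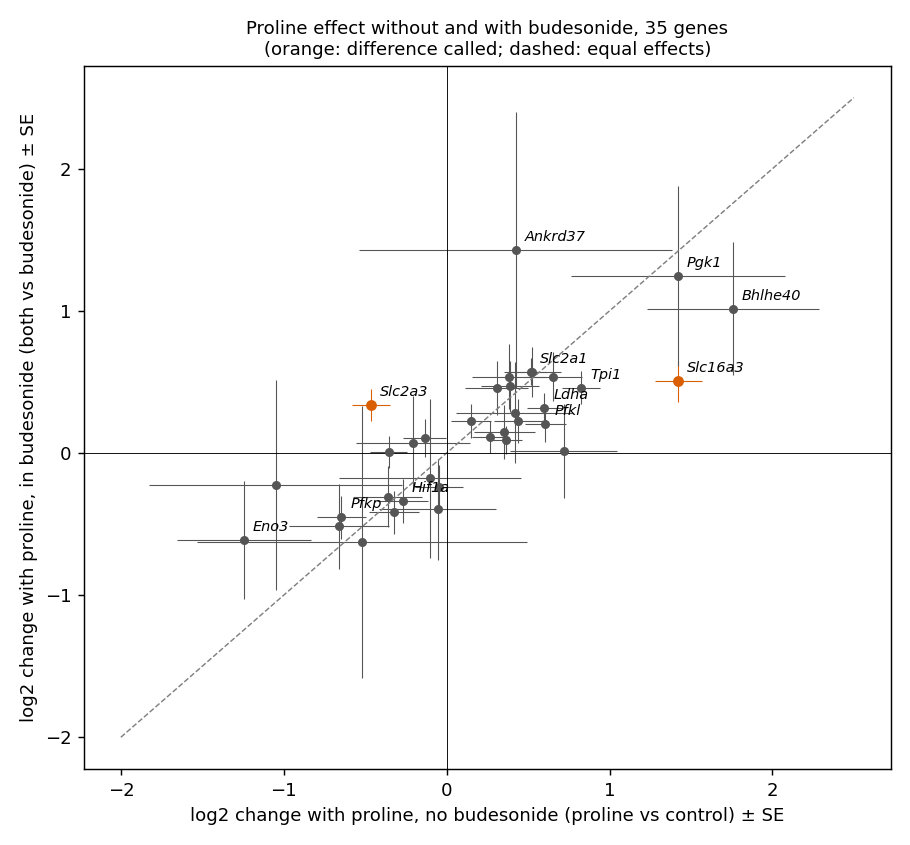
Proline effect on each of the 35 genes without budesonide (x axis, log2, proline against control) and with it (y axis, log2, both against budesonide), with SE as bars. The dashed diagonal marks equal effects and orange points the genes whose effects differed by the interaction test. Slc2a3 lies above the diagonal and Slc16a3 below it, and the axes share no library.

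Few other genes of the pathway were called. Of 17 further glycolysis and glucose enzymes tested, proline changed 0 (1 with an unadjusted p below 0.05, 0 by DESeq2) and budesonide 0 (2 with an unadjusted p below 0.05, 0 by DESeq2). For both against proline Tigar, a phosphatase that slows glycolysis, rose from 76.3 to 111 CPM (0.54 ± 0.15, adjusted p = 0.0222). Of 9 other pyruvate dehydrogenase genes 0 were called in each comparison by edgeR or DESeq2, with 0 to 2 at an unadjusted p below 0.05. Of 7 other glucose, lactate and pyruvate carriers, 1 rose with proline: Emb, embigin, a partner protein that brings lactate carriers to the membrane. Emb went from 108 to 173 CPM (0.68 ± 0.14, adjusted p = 0.00323). It fell with budesonide (−0.54 ± 0.14, adjusted p = 0.0227) and for both against proline (−1.01 ± 0.14, adjusted p = 5.1e-05). Basigin (Bsg), another such partner, fell with budesonide (−0.42 ± 0.12, adjusted p = 0.0288).

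Among 13 genes that control hypoxia-inducible factor, 2 rose with proline. They were Egln3, a prolyl hydroxylase that marks the factor for breakdown and is itself a target of it, from 7.52 to 20.8 CPM (1.46 ± 0.39, adjusted p = 0.0215), and its partner subunit Arnt (0.76 ± 0.21, adjusted p = 0.0267). Arnt also rose with both against control (1.06 ± 0.21, adjusted p = 0.00265). With budesonide 0 of the 13 were called (3 at an unadjusted p below 0.05, 0 by DESeq2). Of 31 other targets of the factor, 2 rose and 2 fell with proline: Egln3 and Mif rose, and the glycogen synthase Gys1 (−0.86 ± 0.23, adjusted p = 0.0189) and the creatine carrier Slc6a8 (−0.85 ± 0.19, adjusted p = 0.00651) fell. Budesonide raised 1 (Anxa2, 1.35 ± 0.26, adjusted p = 0.00208) and lowered 1 (Fam162a, −0.88 ± 0.17, adjusted p = 0.0028). For both against proline 4 rose and 0 fell, with 7 at an unadjusted p below 0.05 and the same counts by DESeq2: Anxa2, the collagen hydroxylase P4ha1 (1.04 ± 0.31, adjusted p = 0.0346), the histone demethylase Kdm3a (1.03 ± 0.24, adjusted p = 0.0059) and Slc6a8 (1.03 ± 0.19, adjusted p = 0.00102).

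The routes beside glycolysis changed in a few genes. Of 9 pentose phosphate genes 0 were called with proline (3 at an unadjusted p below 0.05, 0 by DESeq2), and 2 fell with budesonide. These were G6pdx, which opens the pathway (−0.93 ± 0.26, adjusted p = 0.0343), and Prps2, which makes the precursor of nucleotides (−0.66 ± 0.18, adjusted p = 0.0284). Mean G6pdx was 43.5 CPM in control, 66.4 with proline, 23.0 under budesonide and 57.1 with both. Of the 9 genes, 1 rose and 0 fell for both against budesonide, and 0 rose and 2 fell for both against proline. Of 20 citrate cycle genes 2 fell with proline, the isocitrate dehydrogenase Idh2 (−0.63 ± 0.15, adjusted p = 0.00764) and the ligase subunit Sucla2 (−0.67 ± 0.18, adjusted p = 0.0219). Budesonide raised 2, Idh2 (0.60 ± 0.15, adjusted p = 0.0133) and Idh1 (0.58 ± 0.18, adjusted p = 0.0492), and lowered 2, Idh3b and Mdh1. Idh2 was at 71.9 CPM in control, 46.4 with proline, 109 under budesonide and 107 with both, and its rise for both against proline was 1.21 ± 0.15 (adjusted p = 7e-06).

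Of 22 genes known to regulate glycolysis genes, 3 rose with proline. Mycn, a Myc family factor, went from 169 ± 5.47 to 326 ± 13.4 CPM (SD, n = 3; log2 0.95 ± 0.12, adjusted p = 1.3e-05) and was at 124 ± 15 CPM under budesonide and 170 ± 14.1 with both. Like Ldha, it rose with proline, fell with budesonide (−0.45 ± 0.12, adjusted p = 0.0272) and fell for both against proline (−0.94 ± 0.12, adjusted p = 1.7e-05). Lin28a, an RNA-binding protein of stem cells, rose with proline (0.68 ± 0.12, adjusted p = 0.000823) and fell for both against proline (−0.55 ± 0.12, adjusted p = 0.00493). Mycl rose with proline (1.22 ± 0.37, adjusted p = 0.0469) and with budesonide (1.27 ± 0.38, adjusted p = 0.0413). Whether any of these factors had a part in the changes of the 35 genes was not tested.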

How the data were processed

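Per the labels' protocols, libraries were made with a QuantSeq 3′ end kit, which gives 1 fragment per transcript. The authors deposited whole-number counts per gene symbol. Build GRCm39 and the tools STAR 2.7.5c, featureCounts 2.0, cutadapt 2.5, bcl2fastq and DESeq2 are listed in the submitters' processing notes, with no role or order. Not given in the sources used here: annotation, strand setting, and treatment of multiply matching reads. A second, normalised table was not used.

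The test was edgeR 4.0.16 in R 4.3.3: filterByExpr (minimum count 10, minimum total 15), TMM, glmQLFit on 12 libraries with 1 coefficient per group (8 residual degrees of freedom), two-sided glmQLFTest and Benjamini-Hochberg adjustment over 13852 genes. The prior count was 0.125, the SE is the log2 change, unsigned, divided by the root of the F statistic, and CPM uses TMM-scaled totals. The 35 genes and all lists were chosen with earlier results of these data known. Genes called are named, beyond the 35 genes only those of the lists, at most 3 per direction. Depth was 5.30 to 15.9 M counts per library, and no 2 libraries of the same group were duplicates (chi-square per degree of freedom 5.81 or more). GENCODE M21 transcripts (GRCm38) served only for length, GC content and shared 50-base stretches, and RefSeq for promoters. The fit was tested on 1 simulated data set for proline against control, with 190 of 13230 tested genes changed. Its counts were drawn with the spread that the fit had estimated, so the shares that follow hold for that setting only. It recovered 40.5% of the 2-fold changes put in, and 4.94% of its calls were false. A gene that was not called may therefore still have changed. Alternatives were other scaling factors, no filter, DESeq2 1.42.0, only the libraries compared, a replicate block, leaving out libraries, and length and GC offsets.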

Additional observations from a re-analysis of the deposited data

Results flagged for a closer look

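The proline effect on the glucose carrier Slc2a3 differed with and without budesonide: the interaction was 0.80 on the log2 scale (edgeR adjusted p = 0.018), with all 3 proline libraries below control and the mean with both above that with budesonide. For the lactate exporter Slc16a3 the difference was −0.92 (edgeR adjusted p = 0.0392), from a larger rise without budesonide than with it. These 2 differences rest on all 12 libraries, and each lost its call when certain single libraries were left out.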

How the results depend on the processing

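Of 38 called values of the 35 genes, 17 were called under every setting tried, 21 lost their call under at least 1, and 0 changed direction. Those that kept it included Slc2a1, Slc16a3, Pfkl, Pfkp, Tpi1 and Ldha with proline, and Slc2a3 with budesonide. With only the libraries compared, 3 genes were called for budesonide against control. For both against budesonide, edgeR's RLE factors, only the libraries compared and the replicate block each left 1, and length and GC offsets left 0. For the interaction, the replicate block and the offsets left 1 each, and leaving out control 3 and budesonide 3 together left 0. Leaving out each library in turn gave 7 to 9 genes for proline against control, 3 to 8 for budesonide against control, 5 to 6 for both against proline, 6 to 11 for both against control, 1 to 2 for both against budesonide and 0 to 2 for the interaction.

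Over all genes the counts were 674 to 887, 620 to 809, 836 to 1095, 535 to 789, 80 to 171 and 44 to 89 in the same order. For budesonide against control, 902 calls became 493 with only the libraries compared and 575 without control 3 and budesonide 3. For both against budesonide, 203 became 419 with DESeq2, 354 with no filter, 120 with only the libraries compared, 128 with the block and 118 with offsets. For the interaction, 65 became 145 with DESeq2, 134 with no filter and 32 with offsets. With offsets, both against proline gave 541 higher and 617 lower, against 808 and 591, and the cause was not tested. Same-numbered libraries deviated together with correlations of −0.0767 to 0.0529, against −0.0752 to 0.0819 for other pairs, so the numbers were not taken to pair samples. With the replicate block 10, 6, 8 and 10 of the 35 genes were called in the first 4 comparisons. The block ended the calls of Bhlhe40 with proline (adjusted p = 0.0616), of Tpi1 for both against budesonide (0.0867) and of the Slc16a3 interaction (0.084). It added Eno3 with proline (adjusted p = 0.0372). A fit of only the libraries compared is, for the interaction, the fit already used, since it compares all 4 groups.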
